A study of Mus musculus with 42 samples.

Results

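The genes followed here were the interferon receptor genes and the kinases and transcription factor that act directly beneath them, 9 genes chosen by name from 52636 gene lines, all of which passed the filter on low counts that left 17173 genes to test. They were the type I interferon receptor chains Ifnar1 and Ifnar2, the interferon gamma receptor chains Ifngr1 and Ifngr2, Il10rb, the Janus kinases Jak1, Jak2 and Tyk2, and Stat2. Ifnar2, Il10rb, Ifnar1 and Ifngr2 lie next to each other on mouse chromosome 16, within 193 kb of the segment that is present in an extra copy in Ts65Dn mice. Their RNA was measured as CPM, the reads of a gene scaled to a fixed total per library, in 9 neuronal cultures, and the chromatin at them as peaks in 6 lists from adult hippocampus.

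Interferons are secreted when cells sense viral or misplaced nucleic acid. Type I interferon joins IFNAR1, which carries TYK2, to IFNAR2, which carries JAK1, and the kinases phosphorylate STAT2, which acts on DNA together with IRF9 at interferon-stimulated response elements (ISRE). Interferon gamma joins IFNGR1, the ligand-binding chain with JAK1, to IFNGR2 with JAK2, and its response runs through gamma-activated sites (GAS). IL10RB is the shared second chain of the receptors for interleukin 10 and interferon lambda. In the brain, neurons and glia respond to interferon, and the location of the receptor cluster on the trisomic segment has long made it of interest in Down syndrome.

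Euploid mice, Ts65Dn mice and Ts65Dn;Brwd1+/- mice were compared. Ts65Dn mice carry a small extra chromosome with the distal part of chromosome 16 and the proximal part of chromosome 17, on a mixed DBA/2J and B6EiC3Sn/J background. The Ts65Dn;Brwd1+/- animals came from crossing such females with males that carry the mutant repro5 allele of Brwd1, a bromodomain protein gene on the same segment, so that the trisomy stays and 1 functional copy of Brwd1 is lost. RNA was taken from primary neuronal cultures of forebrain at embryonic day 16, treated with AraC against dividing glia, with 3 libraries per genotype and no label on litter. ChIP-seq for SMARCA2 and SMARCA4, the ATPases of the BAF chromatin remodelling complex, came from hippocampus of males aged 6 to 8 weeks, with 4 immunoprecipitated libraries per genotype, each from the pooled tissue of 2 animals, and ATAC-seq for open chromatin came from sorted NeuN-positive neuronal nuclei of male hippocampus with 3 libraries per genotype. Culture and hippocampus differ in age and cell makeup, and hippocampal RNA was not analysed here.

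Total counts in genes were between 17270070 and 25892802 per culture library. Brwd1 itself was at 89.4 CPM ± 3.66 (SD, n = 3) in euploid, 127 ± 2.13 in Ts65Dn and 139 ± 12.3 in the libraries labelled Ts65Dn;Brwd1+/-. By qPCR the paper reported that the cross restored Brwd1 in embryonic forebrain. Counted over the whole gene, Brwd1 was not lower in the 3 libraries with that label than in Ts65Dn. Xist was between 1409 and 1982 CPM in those 3 libraries and between 0.526 and 1.12 CPM in the other 6, and the sum of 4 Y-linked genes was at most 0.149 CPM against at least 194. The labels give all cultures as pooled male and female. Genotype and sex therefore cannot be told apart in any comparison made with those 3 libraries.

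The bases just upstream of the annotated start are shown for the 3 receptor genes of the cluster with an entry in the promoter table, and for Stat2, because the first carry the extra copy and Ifnar2 and Stat2 hold the only matches to interferon-responsive elements. Sequences are from RefSeq on build GRCm38.p6, 250 bases each on the plus strand. They are chr16:91372533-91372782 for Ifnar2, chr16:91484965-91485214 for Ifnar1, chr16:91546809-91547058 for Ifngr2 and chr10:128270248-128270497 for Stat2. Capitals mark a match to an ISRE core (GAAANNGAAA) or a GAS (TTCNNNGAA) on either strand.
Ifnar2: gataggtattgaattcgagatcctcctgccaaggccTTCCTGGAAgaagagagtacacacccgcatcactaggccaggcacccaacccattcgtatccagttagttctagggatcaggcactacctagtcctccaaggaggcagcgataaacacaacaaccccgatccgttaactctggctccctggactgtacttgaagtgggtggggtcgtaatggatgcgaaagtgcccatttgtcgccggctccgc
Ifnar1: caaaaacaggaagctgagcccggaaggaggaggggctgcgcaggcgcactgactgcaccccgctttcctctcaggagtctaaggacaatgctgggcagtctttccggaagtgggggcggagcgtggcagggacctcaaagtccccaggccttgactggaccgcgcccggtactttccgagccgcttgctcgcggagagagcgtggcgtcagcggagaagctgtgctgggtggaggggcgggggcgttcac
Ifngr2: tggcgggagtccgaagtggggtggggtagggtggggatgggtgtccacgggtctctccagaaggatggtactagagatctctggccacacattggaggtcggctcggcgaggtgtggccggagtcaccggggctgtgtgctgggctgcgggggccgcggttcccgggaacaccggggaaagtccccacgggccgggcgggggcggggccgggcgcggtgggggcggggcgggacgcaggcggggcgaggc
Stat2: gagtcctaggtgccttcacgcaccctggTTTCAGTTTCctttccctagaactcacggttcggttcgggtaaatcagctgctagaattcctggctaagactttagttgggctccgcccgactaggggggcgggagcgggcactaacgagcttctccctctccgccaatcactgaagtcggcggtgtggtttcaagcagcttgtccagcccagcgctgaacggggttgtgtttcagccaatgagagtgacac
Stat2 held the only ISRE core among the 8 of 9 members in the table, and Ifnar2 the only GAS. No ISRE match overlapped a GAS match. An ISRE core was present in 978 of all 32851 promoter windows of this length (2.98%) and a GAS in 7.02%. The GC box GGGCGG occurred in 7 of the 8 members, Ifnar2 being the exception, beside 32.74% of all windows. Ifnar2 also had the lowest share of G and C bases (54.0%) and Jak2 the highest (80.8%), with Ifngr2 at 74.0%.

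The first comparison, Ts65Dn against euploid, asked how far an extra copy of the receptor cluster showed in its RNA. The 4 triplicated receptor genes did not move alike, with fold changes from 1.19 to 4.99. Ifnar1, Ifnar2 and Il10rb passed the test and Ifngr2 did not. By edgeR, 4 of the 9 members were higher, namely those 3 and Stat2, beside 25.6% of all tested genes, and 1 was lower, Jak1, beside 21.1%. Because these were bulk cultures, fewer cells of a type and less RNA per cell cannot be told apart, and summed neuron markers lay between 1229 and 3208 CPM in Ts65Dn against 4882 to 5967 CPM in euploid. Their part in these results was not tested.

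**Figure D1:**
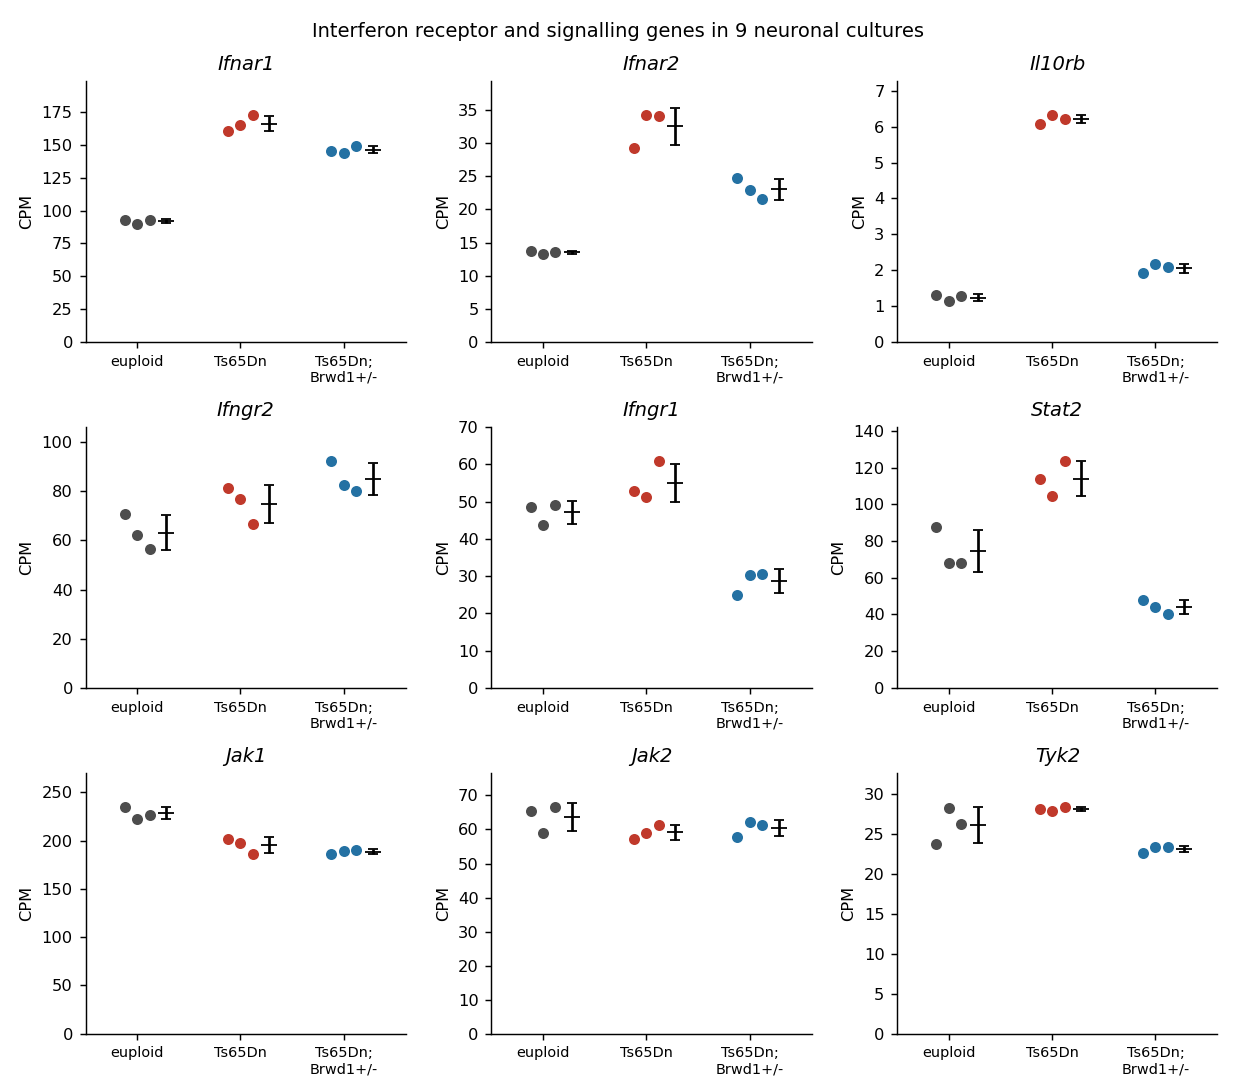
CPM of each member (y axis from 0) in the 3 euploid, 3 Ts65Dn and 3 libraries labelled Ts65Dn;Brwd1+/- (points), with the mean and SD beside them. Ifnar1, Ifnar2, Il10rb, Stat2 and Ifngr1 separate the 3 genotypes without overlap. Stat2 and Ifngr1 are lowest in the libraries labelled Ts65Dn;Brwd1+/-, and Jak2 overlaps throughout.

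Ifnar1 (ENSMUSG00000022967, mm10 chromosome 16, 91485238 to 91507441, plus strand), the chain that docks TYK2, was at 92.9, 89.96 and 92.7 CPM in the euploid libraries and at 161, 165 and 173 CPM in the Ts65Dn libraries. Every Ts65Dn library lay far above every euploid one, and the spread within either genotype was small. The log2 fold change was 0.85 (SE 0.06, 95% interval 0.71 to 0.99, edgeR quasi-likelihood test, adjusted p = 8.71e-06 by Benjamini and Hochberg), a 1.81-fold rise. A gain from 2 to 3 copies alone would give 0.585 on the log2 scale, which serves here as a reference line and not as a test, and the interval for Ifnar1 lay above it.

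Ifnar2 (ENSMUSG00000022971, 91372783 to 91405589), the high-affinity interferon-binding chain that docks JAK1, was at 13.7, 13.3 and 13.6 CPM in euploid and at 29.3, 34.2 and 34.0 CPM in Ts65Dn. The groups stood apart by more than the whole euploid level. Its log2 fold change was 1.26 (SE 0.09, 95% interval 1.07 to 1.46, edgeR adjusted p = 6.02e-06), a 2.40-fold rise, and this interval too lay above the reference line for 3 copies.

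Il10rb (ENSMUSG00000022969, 91406164 to 91425834) begins 574 bases beyond the end of Ifnar2. It was at 1.31, 1.14 and 1.27 CPM in euploid and at 6.08, 6.32 and 6.22 CPM in Ts65Dn, from 26 to 28 reads per euploid library and from 128 to 149 per Ts65Dn library. All 3 Ts65Dn libraries were several-fold above all 3 euploid ones, at a level that stayed low. The log2 fold change was 2.32 (SE 0.13, 95% interval 2.03 to 2.61, edgeR adjusted p = 1.81e-06), a 4.99-fold rise and the 5th highest of the 134 tested genes of the triplicated segment. The annotated read-through gene Gm21970 shares 569 of the 3808 exon bases of Il10rb and 315 of the 3329 of Ifnar2 and had no count in any library, so how reads in those bases were counted is uncertain for both genes.

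Ifngr2 (ENSMUSG00000022965, 91547072 to 91565623), the accessory chain of the interferon gamma receptor, was at 70.8, 62.4 and 56.4 CPM in euploid and at 81.4, 76.8 and 66.6 CPM in Ts65Dn. The highest euploid library lay above the lowest Ts65Dn library, so the groups overlapped. The log2 fold change was 0.25 (SE 0.11, 95% interval 0.01 to 0.48, edgeR adjusted p = 0.0807), and the interval lay below the reference line for 3 copies. With replicate number as a block, a pairing that no label gives, it was 0.25 (SE 0.06, edgeR adjusted p = 0.0115) and passed. It also passed without euploid replicate 1 (0.33, edgeR adjusted p = 0.0366) and without Ts65Dn replicate 3 (0.33, edgeR adjusted p = 0.0236).

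The neighbours of the cluster gave the local setting. All 14 listed genes were tested, from Synj1 to Slc5a3. By edgeR 12 were higher in Ts65Dn and 0 lower, beside 25.6% and 21.1% of all tested genes. At an unadjusted p under 0.05, 1 was lower, and by DESeq2 0. Their median log2 fold change was 0.52, beside 0.63 over the 134 tested genes of the segment and 0.04 over all tested genes. On the distal side of Ifngr2, Tmem50b (0.18, edgeR adjusted p = 0.245) did not pass and Dnajc28 (0.42), Gart (0.73), Son (1.01), Donson (0.39), Cryzl1 (0.51), Itsn1 (0.45), Atp5o (0.52), Mrps6 (1.51) and Slc5a3 (1.31) did. On the other side, Olig1 (1.04), Olig2 (0.54) and Paxbp1 (0.45) passed, and Synj1, the neuronal phosphatase gene synaptojanin 1, did not (-0.38, edgeR adjusted p = 0.0732). Il10rb had the largest log2 fold change of all these genes, and the receptor genes took places from 5th to 100th within the segment. Ifnar2 was 20th and Ifnar1 45th.

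**Figure D2:**
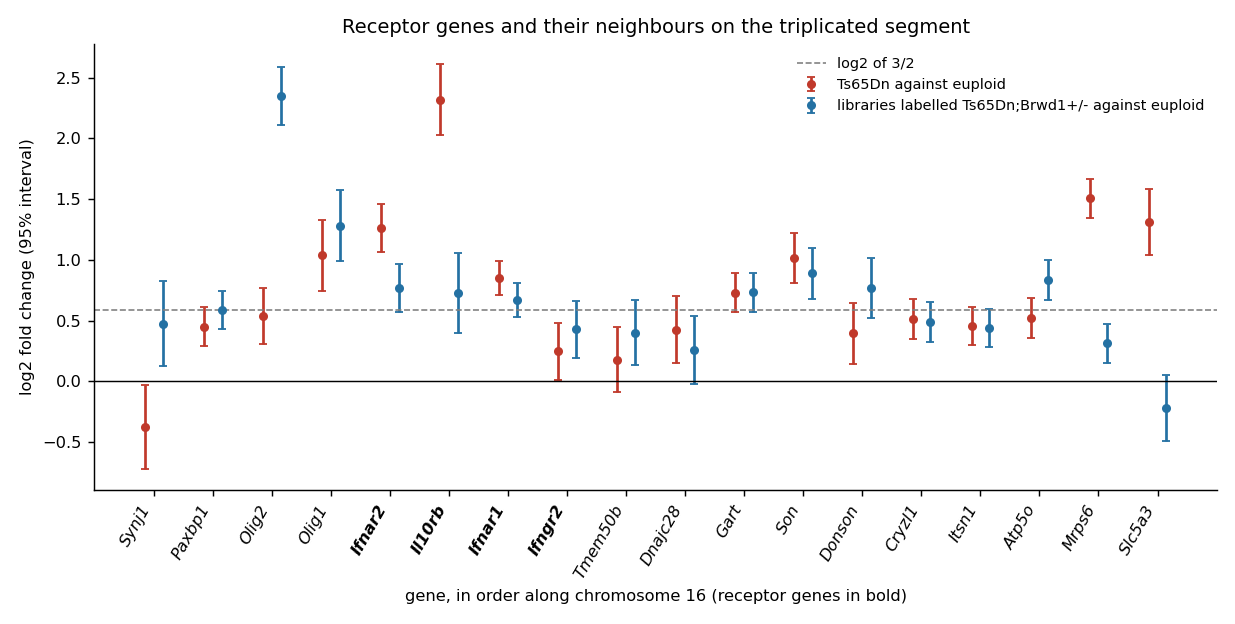
Log2 fold change with 95% interval for the 4 receptor genes (bold) and 14 neighbours in order along chromosome 16, for Ts65Dn (red) and the libraries labelled Ts65Dn;Brwd1+/- (blue) against the same euploid libraries, with a dashed line at log2 of 3/2 (0.585). Ifnar2 and Il10rb stand above the line in Ts65Dn and nearer to it in the other trisomic libraries, and Ifngr2 sits below it in Ts65Dn.

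The other members lie on other chromosomes and carry no extra copy. Stat2 (ENSMUSG00000040033, chromosome 10, 128270559 to 128292849), the transcription factor specific to type I and lambda interferon signalling, was at 87.7, 67.9 and 68.2 CPM in euploid and at 114, 104 and 124 CPM in Ts65Dn. The groups did not overlap, although euploid replicate 1 stood above the other euploid libraries. The log2 fold change was 0.61 (SE 0.11, 95% interval 0.36 to 0.87, edgeR adjusted p = 0.00211).

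Jak1 (chromosome 4), the kinase that serves both interferon receptors, was at 235, 223 and 227 CPM in euploid and at 202, 198 and 186 CPM in Ts65Dn. It was lower in every Ts65Dn library, with a log2 fold change of -0.23 (95% interval -0.37 to -0.08, edgeR adjusted p = 0.0191). Without Ts65Dn replicate 3 the difference was -0.19 (edgeR adjusted p = 0.0714), and without a filter on low counts it was -0.26 (edgeR adjusted p = 0.0523), neither of which passed.

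Ifngr1 (chromosome 10), the ligand-binding chain for interferon gamma, was at 48.6, 43.6 and 49.1 CPM in euploid and at 52.9, 51.3 and 60.9 CPM in Ts65Dn. Each Ts65Dn library was higher than each euploid one, but the log2 fold change of 0.22 (95% interval from just under 0 to 0.45) did not pass (edgeR adjusted p = 0.0948). Jak2, the kinase bound to IFNGR2, lay between 58.8 and 66.7 CPM in euploid and between 57.1 and 61.4 CPM in Ts65Dn (log2 fold change -0.11, 95% interval -0.27 to 0.05, edgeR adjusted p = 0.253). Tyk2, the kinase bound to IFNAR1, lay between 23.8 and 28.2 CPM in euploid and between 27.9 and 28.5 CPM in Ts65Dn (0.11, 95% interval -0.06 to 0.28, edgeR adjusted p = 0.264). For both kinases the intervals allow changes of up to 0.28 on the log2 scale.

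Levels between genes were compared as mean CPM per kb of exon. In euploid cultures Jak1 was highest at 31.6, followed by Ifngr2 at 16.8, Ifngr1 at 16.5 and Ifnar1 at 15.5, whose libraries overlapped, then by Jak2 and Stat2 at about equal levels of 12.7 and 12.6. Ifnar2 at 4.06 and Tyk2 at 3.81 overlapped, and Il10rb was lowest at 0.326 CPM per kb. The 2 chains of the type I receptor therefore differed in level, with Ifnar1 above Ifnar2 in each library. In Ts65Dn cultures Ifnar1 at 27.96 CPM per kb overlapped Jak1 at 27.0, and Ifngr2, Ifngr1 and Stat2 at 19.9, 19.3 and 19.2 overlapped each other. The level ratio of Ifnar1 to Ifngr2 per kb was 0.93 ± 0.106 (SD, n = 3) in euploid and 1.42 ± 0.202 in Ts65Dn, while the ratio of Ifngr1 to Ifngr2 was 0.995 ± 0.136 and 0.985 ± 0.196.

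The second comparison set the libraries labelled Ts65Dn;Brwd1+/- against Ts65Dn, which the design uses to ask what the third copy of Brwd1 adds, within the limits that Brwd1 and the sex-linked genes put on the label. By edgeR no member was higher, beside 27.6% of all tested genes, and 6 were lower, beside 30.5%. At an unadjusted p under 0.05, and by DESeq2, 0 were higher too, while a replicate block or a factor for unwanted variation added Ifngr2. The 6 were Ifnar1, Ifnar2, Il10rb, Ifngr1, Tyk2 and Stat2.

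Among the receptors, Il10rb was at 1.92, 2.17 and 2.09 CPM in the libraries labelled Ts65Dn;Brwd1+/-, well under each Ts65Dn library. Its log2 fold change was -1.59 (SE 0.12, edgeR adjusted p = 4.42e-06). Ifnar2 was at 24.7, 22.9 and 21.6 CPM, again under each Ts65Dn library, with a log2 fold change of -0.49 (SE 0.09, edgeR adjusted p = 7.08e-04). Ifngr1 was at 24.8, 30.4 and 30.5 CPM, 0.519 of its Ts65Dn level (log2 fold change -0.95, SE 0.10, edgeR adjusted p = 3.77e-05). These groups did not overlap.

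Ifnar1 was at 145, 144 and 149 CPM, and its log2 fold change of -0.18 (SE 0.06, 95% interval -0.32 to -0.05, edgeR adjusted p = 0.0269) depended on the processing. It did not pass with scaling factors computed without chromosomes 16 and 17 (-0.12, edgeR adjusted p = 0.127), with no filter (-0.15, edgeR adjusted p = 0.281) or with at least 10 counts in every library (-0.13, edgeR adjusted p = 0.0832). It also did not pass without euploid replicate 3, without Ts65Dn replicate 2 or 3, or without any 1 of the 3 libraries labelled Ts65Dn;Brwd1+/-, where it lay between -0.20 and -0.16 (edgeR adjusted p from 0.0521 to 0.0977). Ifngr2 was at 92.4, 82.5 and 80.2 CPM, partly overlapping Ts65Dn, with a log2 fold change of 0.18 (SE 0.11, 95% interval -0.05 to 0.42, edgeR adjusted p = 0.163).

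Stat2 was at 47.6, 44.1 and 40.2 CPM in the libraries labelled Ts65Dn;Brwd1+/-, under each library of both other genotypes. Its log2 fold change against Ts65Dn was -1.37 (SE 0.12, edgeR adjusted p = 8.30e-06). Tyk2 was lower, at 22.7, 23.4 and 23.4 CPM (-0.28, SE 0.08, edgeR adjusted p = 0.00923), and no longer passed without a filter on low counts (-0.25, edgeR adjusted p = 0.0659). Jak1 (-0.05, 95% interval -0.20 to 0.10) and Jak2 (0.03, 95% interval -0.13 to 0.19) did not pass (edgeR adjusted p = 0.539 and 0.731), and the sign of Jak1 turned with scaling without chromosomes 16 and 17 and with the stricter filter.

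Against euploid, all 4 triplicated receptor genes were higher in the libraries labelled Ts65Dn;Brwd1+/-, beside 14% of all tested genes, and Ifngr1, Jak1 and Stat2 lower, beside 15.2%. The log2 fold changes of the receptor genes were 0.77 for Ifnar2, 0.73 for Il10rb, 0.67 for Ifnar1 and 0.43 for Ifngr2 (edgeR adjusted p = 1.92e-04, 0.0045, 6.18e-05 and 0.0126). All 4 of these 95% intervals held the reference line for 3 copies, from 0.57 to 0.97 for Ifnar2, 0.40 to 1.05 for Il10rb, 0.53 to 0.81 for Ifnar1 and 0.19 to 0.66 for Ifngr2. The call for Ifngr2 was lost without euploid replicate 3 (0.31, edgeR adjusted p = 0.0824) or without the library labelled Ts65Dn;Brwd1+/- replicate 1 (0.34, edgeR adjusted p = 0.0806). The 4 genes thus ranged from 1.35-fold to 1.70-fold here and from 1.19-fold to 4.99-fold in Ts65Dn against the same euploid libraries. Stat2 was -0.76, Ifngr1 -0.72 and Jak1 -0.28 (edgeR adjusted p = 9.41e-04, 6.77e-04 and 0.0113). Tyk2 (-0.17, edgeR adjusted p = 0.119) passed only without euploid replicate 1 (-0.24, edgeR adjusted p = 0.0374), and Jak2 was at -0.07 (edgeR adjusted p = 0.482).

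By pattern over the 9 libraries, the genes most like Ifnar2 in log2 CPM were Litaf, Zfp503 and Zfhx4 (Pearson r = 0.994, 0.992 and 0.991), and those most like Il10rb were Rassf3, Luzp2 and Cnpy1 (0.997, 0.995 and 0.995). Spon1, Kat14 and Vps26c were most like Ifnar1 (0.999, 0.994 and 0.993). Ifngr2 was most like Tmem50b (0.984), the next gene on the chromosome, followed by Gm12696 and Armh4 (0.954 and 0.952). The points of these correlations share 3 genotypes and the sequencing depth of each library. Within the cluster, r was 0.972 between Ifnar1 and Ifnar2 and 0.309 between Il10rb and Ifngr2.

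The ligands of these receptors were close to the limit of detection. None of the 10 listed interferon genes passed the filter, and together they had 21 reads in the 9 libraries. The 6 listed alpha and lambda genes had no read in any library, which allows up to 3 reads per library and covers counting error only. Ifnb1, the interferon beta gene, had 12 reads in all, with 0.194 CPM in euploid replicate 1, 0 in the other 2 euploid libraries, 0.163, 0.0494 and 0.132 CPM in Ts65Dn and 0 in the libraries labelled Ts65Dn;Brwd1+/-. Ifng had 4 reads.

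The other transducers of these receptors were measured more firmly. Of 13 listed, 9 were tested, and by edgeR 8 were higher in Ts65Dn than in euploid and 0 lower, beside 25.6% and 21.1% of all tested genes. In the libraries labelled Ts65Dn;Brwd1+/- 6 were lower than in Ts65Dn and 0 higher, beside 30.5% and 27.6%, and 4 were lower than in euploid and 1 higher, beside 15.2% and 14%. The counts of 0 were also 0 at an unadjusted p under 0.05 and by DESeq2, which called 7 of the 8. Irf9, the DNA-binding partner of STAT2, was at 41.1, 30.4 and 36.1 CPM in euploid, 63.2, 58.8 and 68.0 in Ts65Dn and 20.1, 20.3 and 20.2 in the libraries labelled Ts65Dn;Brwd1+/-. Its 3 genotypes did not overlap (log2 fold change 0.82 in Ts65Dn against euploid, edgeR adjusted p = 2.56e-04).

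Stat6, which serves interleukin 4 and 13, rose from between 3.54 and 4.42 CPM in euploid to between 14.8 and 19.1 in Ts65Dn and was between 1.03 and 2.51 in the libraries labelled Ts65Dn;Brwd1+/- (log2 fold change 2.01 and then -3.23, edgeR adjusted p = 7.52e-05 and 3.25e-06). Jak3, the kinase of the common gamma chain, had log2 fold changes of 0.83 and then -1.44, and Stat3, the main transducer of interleukin 6 and 10, of 0.62 and then -0.71, all past the threshold. Stat5a was the gene of this list that stayed higher than euploid in the libraries labelled Ts65Dn;Brwd1+/- (1.88, edgeR adjusted p = 0.0126), at less than 1 CPM.

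All 17 listed inhibitors were tested, and 4 were higher and 4 lower in Ts65Dn than in euploid by edgeR, a share near that of all tested genes (25.6% and 21.1%). Usp18, which displaces JAK1 from IFNAR2 and is itself induced by interferon, was at 25.05, 11.2 and 11.3 CPM in euploid, 40.5, 37.5 and 46.5 in Ts65Dn and 2.94, 2.51 and 2.28 in the libraries labelled Ts65Dn;Brwd1+/-. The last group was far below both others (log2 fold change 1.39 in Ts65Dn against euploid, -4.01 against Ts65Dn and -2.62 against euploid, edgeR adjusted p = 0.00234, 5.83e-06 and 2.95e-04). Socs3, induced by STAT3, had log2 fold changes of 1.41 and then -1.36, the phosphatase genes Ptpn2 and Ptpn11 of 0.39 and 0.26 in Ts65Dn, and Socs2, Socs7, Cish and Socs5 of -1.21, -0.42, -0.85 and -0.34. Socs2, Socs7 and Cish, with Ptpn1, led the 6 that were higher in the libraries labelled Ts65Dn;Brwd1+/- than in Ts65Dn, and 6 were lower, Socs1 among them (-1.23), again shares near those of all tested genes (27.6% and 30.5%). Against euploid, Ptpn1 (0.34) was the 1 gene higher and Usp18 the 1 lower, beside 14% and 15.2% of all tested genes.

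The readout of the pathway was taken as 57 interferon-stimulated genes, of which 56 were tested. In Ts65Dn against euploid 49 were higher and 1 lower by edgeR, beside 25.6% and 21.1% of all tested genes, with a median log2 fold change of 1.25 beside 0.04. In the libraries labelled Ts65Dn;Brwd1+/- 52 were lower than in Ts65Dn and 1 higher, beside 30.5% and 27.6% (median -2.77, beside 0.000461). Against euploid 46 were lower and 1 higher, beside 15.2% and 14% (median -1.34, beside -0.02). Mx1 and Mx2 of this list lie on the triplicated segment. The list was chosen with earlier results of these libraries known, and its counts describe these libraries.

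**Figure D3:**
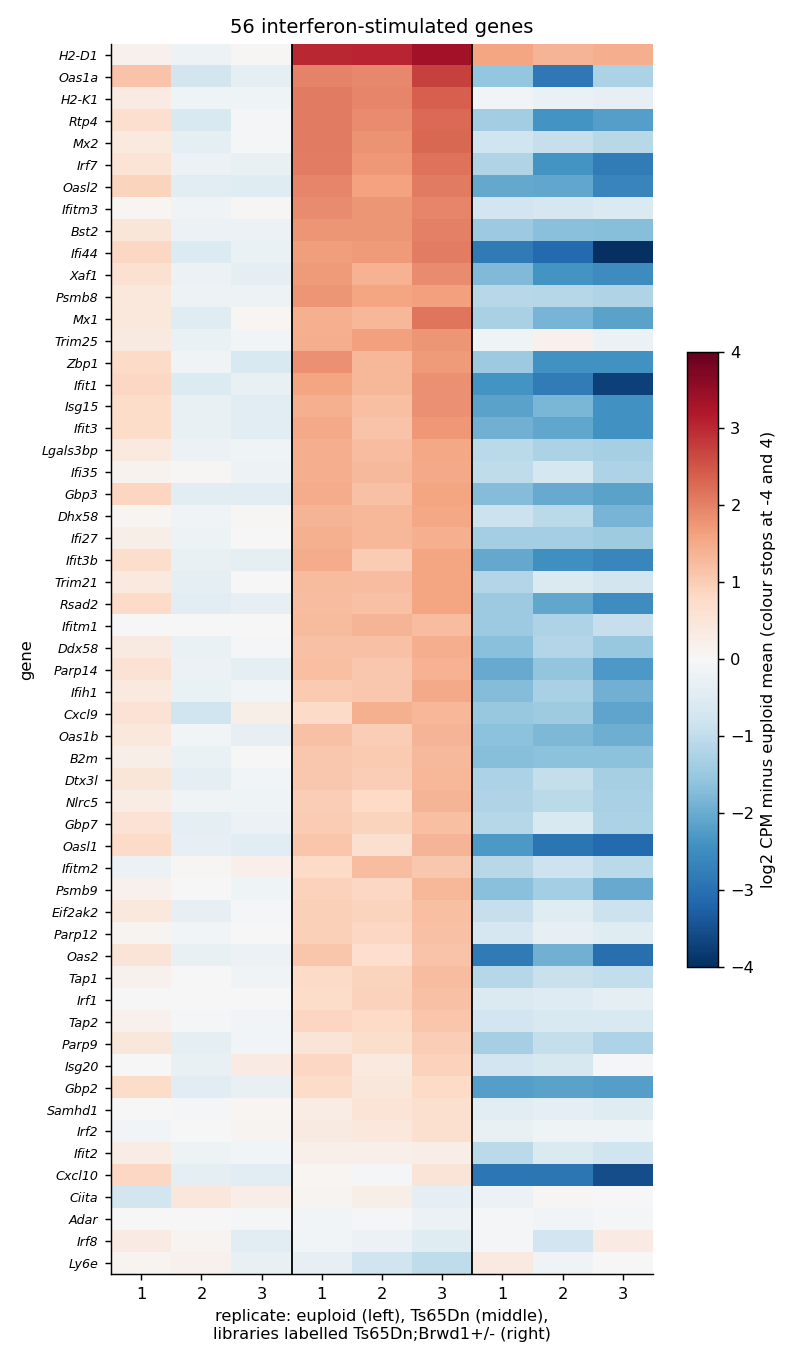
Log2 CPM of the 56 tested interferon-stimulated genes minus each gene's euploid mean, as colour, in the 9 culture libraries, ordered from the highest to the lowest Ts65Dn mean. Most rows are red in Ts65Dn and blue in the libraries labelled Ts65Dn;Brwd1+/-, euploid replicate 1 is redder than replicates 2 and 3, and Ly6e at the bottom runs the other way.

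B2m, the light chain of MHC class I, was at 189, 134 and 161 CPM in euploid, 341, 333 and 392.2 in Ts65Dn and 48.8, 51.3 and 51.7 in the libraries labelled Ts65Dn;Brwd1+/-. The 3 genotypes were far apart, with log2 fold changes of 1.14 in Ts65Dn against euploid, -2.81 against Ts65Dn and -1.67 against euploid (edgeR adjusted p = 8.46e-05, 2.59e-07 and 1.72e-05). Ifitm3, which blocks entry of viruses, was at 18.7, 15.97 and 18.03 CPM in euploid, 64.6, 59.5 and 68.3 in Ts65Dn and 10.3, 11.1 and 11.8 in the libraries labelled Ts65Dn;Brwd1+/- (1.87 and then -2.54, edgeR adjusted p = 7.37e-07 and 8.99e-08). Ifi27 and Bst2, the latter a tether of budding virus, showed the same order of groups, with log2 fold changes of 1.38 and 1.81 in Ts65Dn and -2.77 and -3.46 between the trisomic groups. Psmb9, a subunit of the immunoproteasome, had 1.04 and -2.77.

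Some listed genes did otherwise. Cxcl10, the chemokine, was at 64.7, 28.6 and 26.9 CPM in euploid and 38.7, 35.3 and 52.1 in Ts65Dn, overlapping (log2 fold change 0.07, edgeR adjusted p = 0.869), and at 4.86, 4.90 and 3.06 CPM for those labelled Ts65Dn;Brwd1+/-, below both (-3.24 against euploid, edgeR adjusted p = 1.84e-04). H2-D1, an MHC class I heavy chain, had the largest rise in Ts65Dn (3.15) and was also above euploid in the libraries labelled Ts65Dn;Brwd1+/- (1.46, edgeR adjusted p = 3.03e-05), whereas H2-K1, another heavy chain, rose by 2.12 in Ts65Dn and did not pass in the latter comparison (-0.25, edgeR adjusted p = 0.257). H2-D1 and H2-K1 are related genes that vary between mouse strains, so their counts are uncertain on this mixed background. Ly6e was the gene that fell in Ts65Dn (-0.69, edgeR adjusted p = 0.0155) and rose between the trisomic groups (0.79).

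Euploid replicate 1 was the highest of the 3 euploid libraries in 48 of the 56 genes, with a median ratio of 1.505 to the mean of the other 2, and Ts65Dn replicate 3 the highest of its group in 47, with 1.21. Without euploid replicate 1 the list had 51 calls in Ts65Dn against euploid in place of 50, and over the 9 libraries left out in turn between 45 and 51.

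The cell type markers moved with the genotypes. The 12 neuron markers, among them Tubb3, Map2 and Rbfox3, were present in all cultures, and their summed level was between 4882 and 5967 CPM in euploid, 1229 and 3208 in Ts65Dn and 5154 and 6529 in the libraries labelled Ts65Dn;Brwd1+/-. The lowest sum was that of Ts65Dn replicate 3, against 2790 CPM and more in the other Ts65Dn libraries, and this is also the library with the highest level of its group in 47 of the 56 interferon-stimulated genes, of which 47 were called in Ts65Dn against euploid without it. Of the 12 neuron markers, 10 were lower in Ts65Dn than in euploid by edgeR, beside 21.1% of all tested genes. In the libraries labelled Ts65Dn;Brwd1+/- 10 were higher than in Ts65Dn, beside 27.6%. The 12 astrocyte markers summed to between 5549 and 6498, 8048 and 9141, and 5097 and 5952 CPM in the same order, and the 12 fibroblast and meninges markers to between 362 and 483, 778 and 1294, and 343 and 387 CPM. Neither list moved as a whole between Ts65Dn and euploid. Of 11 tested astrocyte markers 6 were higher and 2 lower by edgeR, beside 25.6% and 21.1% of all tested genes. Clu (log2 fold change 0.99) held the largest share of the sum, and Slc1a2 (-0.98) and Slc1a3 (-0.62) were lower. Of 11 tested fibroblast and meninges markers 5 were higher and 5 lower, beside 25.6% and 21.1% of all tested genes, with a median of -0.36. Fn1 (1.42) and Col1a1 (2.40) were among the higher, and Dcn (-3.23) and Igf2 (-1.95) among the lower. In the libraries labelled Ts65Dn;Brwd1+/- 7 of these 11 were lower and 2 higher than in Ts65Dn, beside 30.5% and 27.6% of all tested genes (median -1.58), and 9 were lower and 2 higher than in euploid, beside 15.2% and 14% (median -1.25). Most of this list was thus lower there, as were most interferon-stimulated genes. Of the astrocyte markers, 6 were lower and 3 higher than in Ts65Dn there, beside 30.5% and 27.6%, and 2 lower and 3 higher than in euploid, beside 15.2% and 14%. Their part in the levels of the receptor and interferon-stimulated genes was not tested.

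The 12 microglia markers summed to between 27.4 and 40.1, 45.1 and 55.9, and 18.5 and 25.3 CPM in the same order. Of the 9 tested, 1 was higher and 2 lower in Ts65Dn than in euploid by edgeR, beside 25.6% and 21.1% of all tested genes. In the libraries labelled Ts65Dn;Brwd1+/- 8 were lower than in Ts65Dn, beside 30.5% of all tested genes (median log2 fold change -2.73), and 7 lower than in euploid, beside 15.2% (median -3.62), with 0 higher in either, also at an unadjusted p under 0.05 and by DESeq2. These falls moved with those of the interferon-stimulated genes, and their part in them was not tested. The defining markers P2ry12 and Tmem119 were at most 0.437 and 0.146 CPM in any library. Of the endothelium and pericyte markers, which summed to between 143 and 167, 747 and 981, and 188 and 227 CPM, Kdr held the largest part in Ts65Dn. Without Kdr they summed to between 64.6 and 79.2, 95.4 and 123, and 95.6 and 104 CPM, and the trisomic groups overlapped. Of the 6 tested, 3 were higher and 0 lower in Ts65Dn than in euploid, beside 25.6% and 21.1% of all tested genes. These counts were the same at an unadjusted p under 0.05 and by DESeq2. In the libraries labelled Ts65Dn;Brwd1+/- 1 was higher and 3 lower than in Ts65Dn, beside 27.6% and 30.5%. Against euploid 1 was higher there and 1 lower, beside 14% and 15.2%. Cldn5 had no read, and Cdh5 was at most 0.177 CPM.

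**Figure D4:**
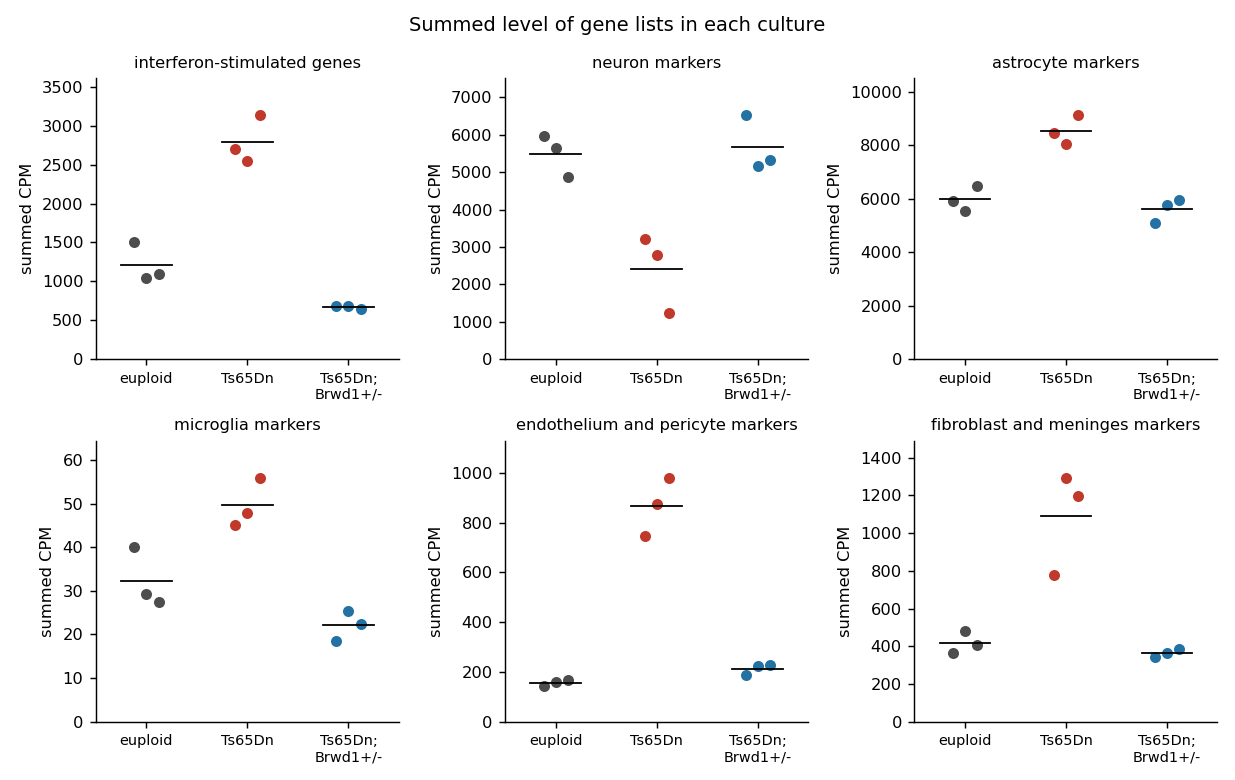
Summed CPM (y axis from 0) of the 57 interferon-stimulated genes and of 12 markers each for 5 cell types in every culture library, with a line at each group mean. The interferon-stimulated genes sum to between 1048 and 1505 CPM in euploid, 2550 and 3139 in Ts65Dn and 645 and 682 in the libraries labelled Ts65Dn;Brwd1+/-, and the neuron markers are lowest in Ts65Dn.

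In adult hippocampus, the chromatin at the members was read from 1 peak list per genotype and assay, so peaks carry no replicate error and no test. The ATAC-seq lists held 15521, 29195 and 30244 peaks for euploid, Ts65Dn and Ts65Dn;Brwd1+/-, and the SMARCA2/4 lists 22667, 1290 and 1873. The lists differ widely in length, which bears on every presence or absence given here. Fold enrichment is the height of a peak over input for SMARCA2/4 and over local background for ATAC-seq.

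In neuronal ATAC-seq, 7 of 9 members were named by a peak in the euploid list, beside 53.3% of all tested genes, and 8 each in the Ts65Dn and Ts65Dn;Brwd1+/- lists, beside 66.0% and 65.6%. Il10rb was named in none. Peaks at the start of Ifnar1, Ifnar2, Ifngr1, Jak1, Jak2, Tyk2 and Stat2 were in all 3 lists. The peak at the Stat2 start was the highest of the members in every list, with a fold enrichment of 5.81, 8.37 and 7.28 at percentiles 87.8, 98.5 and 98.5 of its list. Its ratio between the Ts65Dn and euploid lists was 1.44, beside a median of 1.23 over the 15012 euploid peaks that overlapped a Ts65Dn peak, at percentile 82.9. In the Ts65Dn and Ts65Dn;Brwd1+/- lists it covered the ISRE core shown above (chr10:128270276-128270285), and in the euploid list its edge fell within that core. A euploid SMARCA2/4 peak began there too.

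At the triplicated receptors the peak over the Ifnar1 start (chr16:91484915-91485548 in the euploid list) had a fold enrichment of 5.39, 5.77 and 5.23, and that over the Ifnar2 start (chr16:91372725-91373286) of 3.47, 4.09 and 3.23. Their Ts65Dn to euploid ratios of 1.07 and 1.18 lay at percentiles 17 and 38.3 of shared peaks, below the median. A peak at the Ifngr2 start (chr16:91546973-91547531 in the Ts65Dn list) was in the Ts65Dn and Ts65Dn;Brwd1+/- lists, at 3.10 and 2.70 and percentile 9.0 of both, and not in the shorter euploid list. The same held for a peak near the 3′ end of Ifnar1 (chr16:91505178-91505589 in the Ts65Dn list, fold 3.73 and then 2.54), whose middle lay in an exon. It also held for one within Ifnar2 at 23.4 kb from its start, which the lists name after Gm21970 (4.39 and 3.60). Peaks in introns of Jak1 (2.45) and Jak2 (3.35) were in the Ts65Dn;Brwd1+/- list alone.

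**Figure D5:**
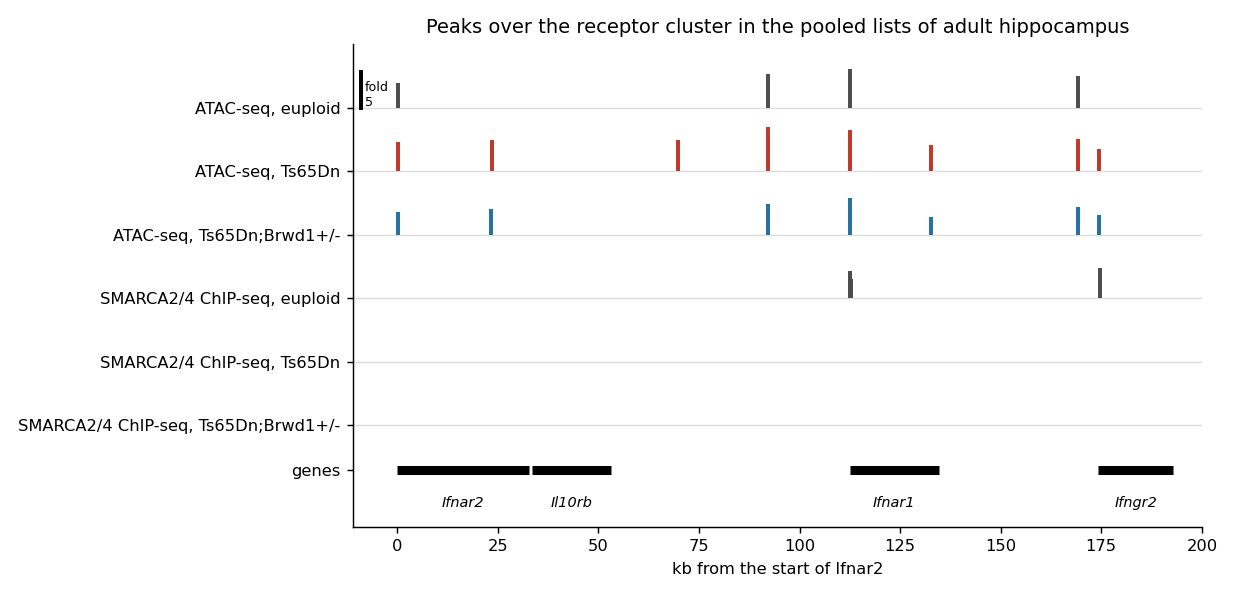
Peaks from the 6 lists along the receptor cluster, by distance in kb from the start of Ifnar2, with the height of each bar as the fold enrichment (scale bar of 5) and the 4 genes as black bars. ATAC-seq peaks mark the starts of Ifnar2 and Ifnar1 in all 3 lists and Ifngr2 in both trisomic lists, and SMARCA2/4 peaks are seen in the euploid list alone, at Ifnar1 and Ifngr2.

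SMARCA2/4 peaks named 6 members in the euploid list, beside 38.6% of all tested genes, 1 in the Ts65Dn list, beside 4.14%, and 0 in the Ts65Dn;Brwd1+/- list, beside 4.89%. The 15 euploid peaks were 7 at Jak2, 2 each at Ifnar1, Ifngr1 and Stat2, and 1 each at Ifngr2 and Jak1, with none at Ifnar2, Il10rb or Tyk2. The highest was at Ifngr1 (chr10:19592208-19592268, in an intron just past the start, fold 4.77, q = 5.12e-05), followed by a second at the Ifngr1 start (4.33) and that at Ifngr2 (chr16:91547355-91547528, intron, 4.32). At Ifnar1 they were at 3.77 and 2.64, the second with a q of 0.119. The Ts65Dn peak was at Stat2 (chr10:128270690-128270737, fold 4.27, q = 0.0228) and lay within a euploid peak of fold 2.87 and q 0.0890. Of all euploid peaks, 2.67% overlapped a Ts65Dn peak and 3.82% a Ts65Dn;Brwd1+/- peak, so a peak missing at a member cannot be told apart from the shorter lists as such.

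Of the 56 tested interferon-stimulated genes, 7 (12.5%) were named by an ATAC-seq peak in the euploid list, 14 (25%) in the Ts65Dn and 16 (28.57%) in the Ts65Dn;Brwd1+/- list, and 6, 1 and 0 by a SMARCA2/4 peak. These shares lay below those of all tested genes in each list. Upstream of the start, 15 of the 52 listed genes found in the promoter table held an ISRE core (28.85%, beside 2.98% of all windows) and 11 a GAS (21.15%, beside 7.02%).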

How the data were processed

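RNA-seq counts per gene were deposited for 9 cultures, 3 per genotype. Per the labels and methods, the authors aligned single reads to mm10 with HISAT2 and counted them with featureCounts on Ensembl genes, although the files end in 5 summary lines of another counter's form. Those lines, which name no gene, held 37.4 to 40.0% of all counts and were left out. Whether counting used strand is not given in the sources used here. Total counts in genes were 17270070 to 25892802 per library, so precision is lowest for Il10rb. The authors called SMARCA2/4 and ATAC-seq peaks with MACS and deposited 1 list per genotype with fold enrichment (a ratio) and q-values. How replicates were joined is not stated. The SMARCA2/4 lists also held peaks with a q-value of 0.05 or more, with 31.78 to 87.78% under it.

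Counts were fitted in edgeR 4.0.16 (R 4.3.3) with TMM scaling, its filter on low counts and the quasi-likelihood test over all 17173 genes that passed, with 1 fit for the 3 genotypes and Benjamini-Hochberg adjustment at 0.05. CPM were computed from the deposited counts with the same scaling, and r used log2 CPM with a prior count of 2. Replicates were separate libraries whose counts differed beyond counting error. No label ties them to litters, so p-values measure the spread between these libraries, which may be technical. Deviations of same-numbered libraries from their genotype means correlated weakly between euploid and Ts65Dn (r = 0.129, 0.206 and 0.263), each over 0.1. Differently numbered libraries were not compared. Pairing them thus rests on these data and not on the labels, and may not hold. The fit with replicate as a block is given where it changed a call. The script was tested on simulated data. Gene positions come from the mm10 annotation, which held 99.721% of the gene IDs.

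Members and gene lists were chosen with earlier results of these data known. Named genes were the members, the chromosome 16 neighbours, Brwd1, up to 4 genes per list, direction and comparison with the smallest adjusted p, and the 3 genes most like each receptor. Marker genes, Xist and the interferon genes were named beside these as checks. Alternatives were other scaling and filters, a replicate block, fits of 2 genotypes alone, a factor for unwanted variation, DESeq2 1.42.0, a threshold of 0.1, each library left out, stricter peak filters and overlaps, and peaks within 3 kb of a gene. Hippocampal RNA was not analysed here, and values of some listed genes are not reported here.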

Additional observations from a re-analysis of the deposited data

How the results depend on the processing

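The number of members and of interferon-stimulated genes called stayed within 1.5 times its value in all 108 alternative counts. Over the libraries left out in turn, member calls were 5 to 6 in Ts65Dn against euploid, 5 to 6 between the trisomic groups and 6 to 8 for those labelled Ts65Dn;Brwd1+/- against euploid. Of 459 alternative fold changes of members, 435 kept direction and call, 14 lost the call, 8 gained it and 2 turned sign. The 2 were Jak1 between the trisomic groups, at 0.01565 with scaling without chromosomes 16 and 17 and 0.00221 with at least 10 counts in every library, and the cause was not tested. A factor for unwanted variation also brought Ifngr1 in Ts65Dn past the threshold (edgeR adjusted p = 0.0219) and Ifngr2 in both comparisons with Ts65Dn (edgeR adjusted p = 0.00878 and 0.0385).

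With the replicate block, members called were 6, 7 and 7 and interferon-stimulated genes 51, 53 and 49 in the 3 comparisons. Same-numbered libraries labelled Ts65Dn;Brwd1+/- had no steady correlation with the others (r from -0.162 to 0.279). There the block brought Ifngr2 against Ts65Dn past the threshold (edgeR adjusted p = 0.0314). Apart from Ifngr2 in both comparisons with Ts65Dn, the block changed no member's call. The 1 euploid SMARCA2/4 peak that overlapped a Ts65Dn peak, at Stat2, became 0 when at least 50% of both peaks had to overlap, since the Ts65Dn peak is much the shorter. The other 17 of 18 alternative peak counts kept within that range. Depth limits Il10rb and the interferon genes most, and peak lists carry no replicate error.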
